A study of Mus musculus with 6 samples.

Results

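The regions described here carried mSin3A islands in both libraries from wild-type (WT) CD8 T cells and in exactly 1 of the 2 libraries from cells lacking Tcf1 and Lef1 (DKO). There were 597 of them among 23510 merged regions. The members were chosen by measured values, namely the presence or absence of an island in each of the 4 deposited lists after islands that shared a base or touched had been merged. The calls are therefore a description of the members and not a finding about them, and the same holds for the reads and lengths of the same islands. Of the members, 379 were also called in DKO condition 1 and not in DKO condition 2. The other 218 were also called in DKO condition 2 and not in DKO condition 1.

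The DKO cells came from Tcf1-/-Lef1-/- mice, in which both genes had been deleted by a Cre recombinase driven by CD4 sequences, and the WT cells from control mice with the wild-type genotype. A Cd4-driven Cre acts from the thymus onward. The loss of both factors in the sorted cells was not measured here. All cells were sorted from spleen as CD8+ T cells with high surface TCRbeta, fixed, sonicated and immunoprecipitated with an antibody against mSin3A. For each genotype there is 1 ChIP library in condition 1 and 1 in condition 2. The labels say neither how the conditions differ nor how many animals were used, and an input library of each genotype was not analysed here.

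mSin3A has no known DNA-binding activity of its own. It is a scaffold that holds the histone deacetylases HDAC1 and HDAC2 and is brought to chromatin by sequence-specific repressors and other chromatin proteins. The removal of acetyl groups from histones is mostly linked to gene repression, although Sin3 complexes are also found at active promoters. Tcf1 and Lef1 are HMG-box factors that bind the same motif and, in T cells, establish and maintain the CD8 lineage. They partner with beta-catenin as activators and with Groucho/TLE proteins as repressors.

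Each group is 1 library, so no difference below has a replicate check and no test was made. The lists held 15954 and 13556 islands in DKO conditions 1 and 2, and 13397 and 11151 islands in WT conditions 1 and 2. Summed island reads were closer, between 1792952 and 1917097 per library. An unlisted region has an unknown number of reads in the library that does not list it, since that library's signal there was not analysed here. Coordinates are of the mouse build mm9, with the first base counted as 1. No genome or annotation of that build was used, so no gene and no sequence is given for any region.

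Regions called in both WT libraries numbered 6919. In 8.63% of them exactly 1 DKO library had an island as well (Wilson 95% interval 7.99 to 9.31), and these are the 597 members. Both DKO libraries had an island in 81.5% (80.5 to 82.4), and neither had one in 9.9% (9.22 to 10.6). The mirror group, called in both DKO libraries and in exactly 1 WT library, was larger. It held 1978 regions, or 20.3% of the 9726 regions called in both DKO libraries. The members were 0.302 times as many as this mirror group (exact 95% interval 0.275 to 0.331, counting error only). With all 4 lists cut to 11151 islands by reads, this ratio was 0.393, and with an island required to cover 50% of the widest WT island it was 0.558.

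More members shared their call with DKO condition 1 than with DKO condition 2, 63.5% (Wilson 95% interval 59.5 to 67.2) against 36.5% (32.8 to 40.5). The ratio of the 2 counts was 1.74 (exact 95% interval 1.47 to 2.06). The list of DKO condition 1 was also the longer. With lists of equal length the counts were 304 and 320, so the excess for DKO condition 1 was not seen there. Of the regions called in both WT libraries and DKO condition 1, 6.3% (5.71 to 6.94) had no island in DKO condition 2. Of those called in both WT libraries and DKO condition 2, 3.72% (3.27 to 4.24) had none in DKO condition 1.

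In amount of signal the members lay between regions called only in WT and regions called everywhere. Their median was 83 reads in DKO condition 1 and 88 in DKO condition 2, over the members each of these libraries called, and 95 and 109 reads in WT conditions 1 and 2. Regions called in both WT libraries alone had medians of 74 and 79 reads in WT conditions 1 and 2. Regions called in all 4 libraries had 155 and 164 reads in the DKO libraries and 159 and 174 in the WT libraries. The middle 50% of the members ran from 55.5 to 118 reads in DKO condition 1, from 61 to 118 in DKO condition 2, from 65 to 146 in WT condition 1 and from 75 to 161 in WT condition 2. These ranges overlap those of both other groups.

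**Figure D1:**
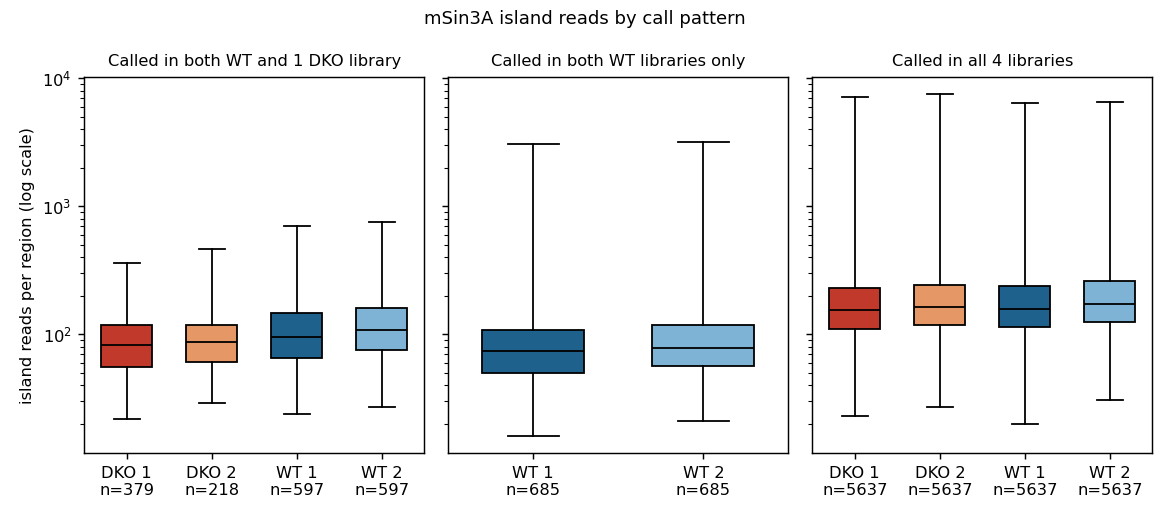
Island reads per region (log scale) in each library, for regions called in both WT and 1 DKO library (left), in both WT libraries only (middle) and in all 4 libraries (right). Boxes span the middle 50% with the median as a line and whiskers reach the lowest and highest region; the members' medians (83, 88, 95 and 109 reads) lie below those of regions called in all 4 libraries (155 to 174) and above those of regions called in WT alone (74 and 79).

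Density showed the same order. The members had a median of 25 reads per kb of called length in DKO condition 1 and 25.5 in DKO condition 2, against 25 and 25.9 in WT conditions 1 and 2. Regions called in WT alone had 22.0 and 22.3 reads per kb, and regions called in all 4 libraries had 32.5 to 33.3 reads per kb in any library. The mirror regions were denser than the members, with medians of 28.4 to 29.5 reads per kb in any library. Within the called islands of the members, then, density was nearly level between WT and the DKO library that called them. Density in the DKO library without an island is unknown. Within called islands it was also nearly level in regions called in all 4 libraries.

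In each list fewer than 50% of the members were in its upper 50% of called regions by reads. The share was 38.5% in DKO condition 1 and 28.0% in DKO condition 2, over the members each called. In WT condition 1, 42.0% of the members were in the upper 50% of called regions by reads, and in WT condition 2, 39.5%. For regions called in all 4 libraries these WT shares were 79.4% and 74.4%, and for regions called in WT alone 26.6% and 20.6%.

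The share of members was lower at each step up in WT reads. Regions called in both WT libraries were divided into 5 equal bins by the lower of their 2 WT read percentiles, which run from 0 for the fewest to 100 for the most reads among the regions a library called. In the bin with the fewest reads, with medians of 68 and 75 reads in WT conditions 1 and 2, 21.0% of regions were members (Wilson 95% interval 19.0 to 23.3). The share was 9.47%, 6.0% and 4.62% in the next 3 bins. It was 2.02% (1.4 to 2.91) in the bin with the most reads, whose WT medians were 348 and 363 reads. The lowest bin thus held 291 members, or 48.7% of them, and the highest held 28. Calls in both DKO libraries went the opposite way, from 44.4% of the lowest bin to 97.0% of the highest. The decline was not particular to the members. Regions called in no DKO library fell from 34.6% of the lowest bin to 0.94% of the highest. When the bins were set by called length in WT, the shares ran from 13.3% in the lowest to 3.9% in the highest bin.

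**Figure D2:**
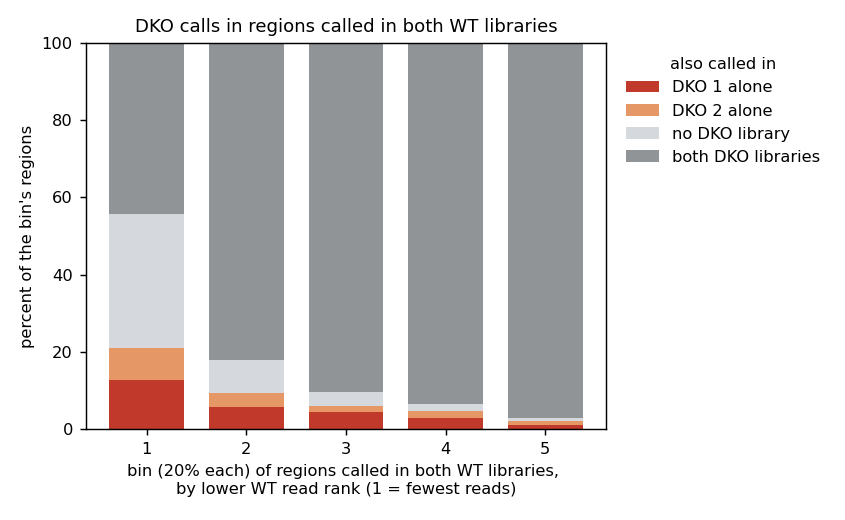
Share of regions (percent) in each of 5 equal bins of the regions called in both WT libraries, ordered by the lower of the 2 WT read percentiles, by which DKO libraries also called them. The regions shared with DKO 1 alone or DKO 2 alone (red and orange) make up 21.0% of the lowest bin and 2.02% of the highest. Calls in both DKO libraries (dark grey) go from 44.4% to 97.0%, and calls in no DKO library (light grey) from 34.6% to 0.94%.

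The members were broad regions by the standard of a transcription factor peak, as is usual for island calling. The merged width ran from 599 bp at chr13:48329201-48329799 to 33999 bp at chr15:80454001-80487999, with a median of 5999 bp. Regions called in all 4 libraries had a median of 7599 bp and those called in WT alone 4999 bp. Almost every member held a single island per library: 97.6% of those called in DKO condition 1, 95.9% of those called in DKO condition 2, and 94.8% and 97.3% in WT conditions 1 and 2. In regions called in all 4 libraries the share with a single island was 81.8% to 90.2%. It was as high as in the members in regions called in WT alone (97.8% and 99.6%), and 93.3% to 98.3% in the mirror regions.

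The islands of the calling libraries mostly overlapped, though often only in part. All 3 shared at least 1 base in 540 members (90.5%, Wilson 95% interval 87.8 to 92.6), and the stretch shared by all 3 had a median of 1999 bp over all members, or 38.7% of the merged region. The 2 WT islands met in 587 members, the DKO island met the WT island of its own condition in 579, and it met the WT island of the other condition in 566. In the remaining members a chain of neighbouring islands joined the 3 libraries. The DKO island or islands lay wholly inside a WT island in 344 members (57.6%, 53.6 to 61.5). These shares are not given for the other call patterns, so they describe the members and do not set them apart.

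By its median the DKO island was somewhat shorter than the WT islands. The median called length was 3199 bp in both DKO libraries, over the members each called, and 3599 and 3999 bp in WT conditions 1 and 2, over all 597 members. Shorter DKO calls were not particular to the members. In regions called in all 4 libraries the medians were 4399 and 4799 bp in DKO conditions 1 and 2, and 4799 and 5199 bp in WT conditions 1 and 2. In DKO condition 1 the DKO island had the fewest reads of the 3 libraries in 214 of 379 members (56.5%) and in DKO condition 2 in 88 of 218 (40.4%). It had the shortest called length in 169 and 88 members. The same shares over all regions were not computed, and the reads were not scaled, so these counts do not show a trait of the members. In regions called in all 4 libraries DKO condition 1 also had fewer median reads than the WT libraries, 155 against 159 and 174. In the members shared with DKO condition 2, the median of 88 reads in that library equalled the median of 88 in WT condition 1 and was below the 109 of WT condition 2.

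Reads were compared within a condition as the log2 ratio of DKO over WT, centred on the median of the regions called in all 4 libraries (-0.06 in condition 1 and -0.09 in condition 2). The median over members was -0.18 in condition 1 (binomial 95% interval over members -0.24 to -0.12, n = 379), with the middle 50% from -0.56 to 0.18. In condition 2 it was -0.24 (-0.29 to -0.13, n = 218), with the middle 50% from -0.62 to 0.17. With lists of equal length these medians were -0.092 in condition 1 and -0.025 in condition 2, over the regions that then met the rule. Over all regions called in both libraries of the condition the median was -0.03 in condition 1 (n = 7605) and -0.02 in condition 2 (n = 6860). The members counted toward those totals. The mirror regions, which had a call in the same WT library and both DKO libraries, also had medians below 0, at -0.15 in condition 1 (n = 1149) and -0.11 in condition 2 (n = 829). A negative median was thus seen in both groups called in exactly 3 libraries, and in the mirror group the DKO islands had slightly fewer reads as well.

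At least 2-fold fewer reads in DKO were found in 47 members in condition 1 (12.4%), where 4.62% of all regions called in both libraries passed that mark. In condition 2 there were 29 such members (13.3%), against 4.17% of all regions. At least 2-fold more reads in DKO were found in 15 members in condition 1 (3.96%, against 3.01% of all regions) and in 5 in condition 2 (2.29%, against 2.90%). Since membership depended on these same islands and members have few reads, the differences from the background are a description. The ratios were also more spread out among members, with an SD of 0.76 in condition 1 and 0.72 in condition 2, against 0.50 and 0.52 in regions called in all 4 libraries. The log2 ratio between the WT libraries was more spread too, with an SD of 0.69 in the members shared with DKO condition 1 and 0.68 in those shared with DKO condition 2, against 0.51. The mirror regions lay in between. Their DKO over WT ratios had an SD of 0.66 in condition 1 and 0.60 in condition 2. At least 2-fold fewer reads in DKO were found in 8.09% and 6.27% of them.

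The ratio of reads followed the ratio of called length. For called length the median log2 ratio (DKO over WT) was -0.21 among members in condition 1, and -0.32 among those in condition 2. Over all regions called in both libraries it was -0.10 in each condition. Across members the 2 log2 ratios had a Pearson correlation of 0.927 in condition 1 (n = 379) and 0.922 in condition 2 (n = 218). Both are measured on the same islands, and regions are not independent replicates. Per kb of called length the median log2 ratio, which was not centred, was -0.026 in condition 1 and -0.0055 in condition 2. Over all regions called in both libraries of the condition it was 0 and -0.0087. A 2-fold difference in reads per kb in either direction was found in 9 members in condition 1, against 2.33% of all regions, and in 3 members in condition 2, against 2.43%.

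**Figure D3:**
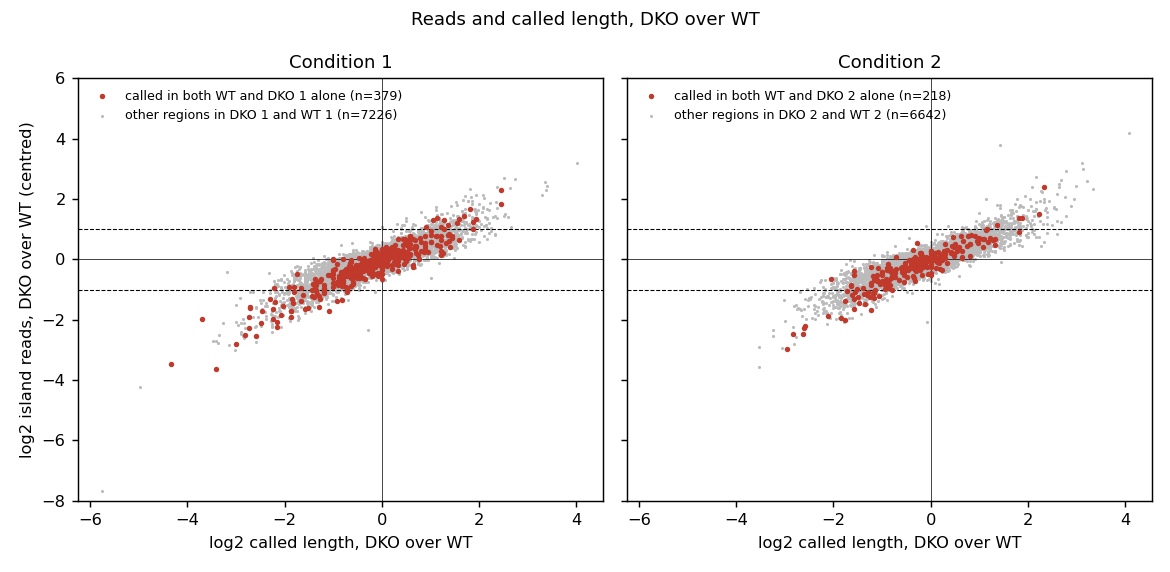
Log2 ratio of island reads (centred) against log2 ratio of called length, DKO over WT, in condition 1 (left) and condition 2 (right). Red points are members and grey points the other regions called in both libraries of the condition; dashed lines mark 2-fold, and the members run along the diagonal (r = 0.927 and 0.922), with 47 and 29 of them at or below the lower line and 15 and 5 at or above the upper line.

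Named regions follow rules set out with the methods. Among members shared with DKO condition 1, the highest ranks went to chr2:25426201-25445199, with 295 reads in DKO condition 1 against 401 and 388 in WT conditions 1 and 2, and to chr8:90807601-90830799, with 289 against 489 and 517 reads. The chromosome 2 region was at the 93.6th percentile or higher in all 3 lists, yet the nearest island of DKO condition 2 lay 11801 bp away. At the chromosome 8 region the nearest one lay 82201 bp away. Both regions thus belonged to the strong end of 3 lists without an island in the fourth. The chr19:47577001-47591799 region held 265 reads in DKO condition 1 against 361 and 300 in WT.

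In other members of this kind the DKO library had as many reads as WT. The chr17:84858401-84869199 region held 359 reads in DKO condition 1 against 331 and 294 in WT, and DKO condition 2 had no island within 99601 bp. Its reads were 1.13 times those of WT condition 1 after centring (exact 95% interval 0.972 to 1.32). At chr2:30553401-30569799 there were 323 reads against 263 and 252, and at chr15:6474801-6484599 there were 218 against 215 and 258. In the last 2 regions, however, an island of DKO condition 2 lay only 1201 and 801 bp away, and joining islands within 2 kb ended their membership, as it did for chr7:90791001-90805599 (208 reads against 248 and 380). The remaining regions in this ranking were chr7:133889601-133907999, with 209 reads against 227 and 327, and chr4:132922601-132935199, with 197 against 260 and 264.

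The last of these 10 differed in form. The chr8:15519401-15520199 region was only 799 bp wide, with exactly the same called stretch in all 3 libraries. It held 189 reads in DKO condition 1 against 221 and 236 in WT, which is 237 reads per kb against 277 and 295. The nearest island of DKO condition 2 was 482401 bp away. Only 1 other member passed 100 reads per kb in any library. It was chr15:47371201-47372199, with 84 reads (211 per kb) in DKO condition 1 against 89 (111.4 per kb) and 103 (103 per kb) in WT. It was chosen after its values were seen. Without the inputs, the background at these dense, narrow regions is unknown.

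Members shared with DKO condition 2 ranked lower. Percentiles are within each library's own list, however, with 14328 regions in DKO condition 1 and 12428 in DKO condition 2. The top 10 also came from 218 members rather than 379. Median reads in the calling DKO library were 88 in these members and 83 in those shared with DKO condition 1. The highest-ranked member shared with DKO condition 2 was chr5:139636001-139658799, with 282 reads in DKO condition 2 against 376 and 584 in WT conditions 1 and 2. In WT condition 2 it was called as 1 island of 22799 bp, and in DKO condition 2 as a pair of islands with 11798 bp in all. The nearest island of DKO condition 1 lay 7601 bp away. The chr1:137000201-137013199 region held 221 reads against 266 and 278, chr7:151621801-151637599 held 183 against 281 and 342, and chr5:111480001-111490999 held 177 against 226 and 225. For the last of these, DKO condition 1 had no island within 68601 bp.

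Several members of this kind had nearly equal reads in the 3 libraries, which the same ranking favoured. At chr5:36096601-36103999 there were 182 reads in DKO condition 2 against 176 and 189 in WT, over called lengths of 6199 bp against 5999 and 6199 bp. At chr16:95921201-95928799 there were 180 against 184 and 186 reads. Their ratios to WT condition 2 were 1.02 (exact 95% interval 0.829 to 1.26) and 1.03 (0.832 to 1.27). DKO condition 1 nevertheless listed no island in either region, and its nearest islands lay 5801 and 9201 bp away. The others in this ranking were chr9:41832801-41847399 (230 against 223 and 195 reads), chr15:89196801-89209599 (191 against 309 and 171), chr16:17505601-17513799 (153 against 199 and 175) and chr12:33984801-33993599 (157 against 147 and 201).

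At the other end were members in which WT cells had a broad domain and the DKO library only a short island. The lowest ratio of reads was at chr7:19651601-19674799, with 38 reads in DKO condition 1 against 494 and 221 in WT. The DKO island spanned 2199 bp against 23199 and 9399 bp, and it did not meet the island of WT condition 2. Its centred ratio to WT condition 1 was 0.0803 (exact 95% interval 0.0561 to 0.112). Per kb the values were 17.3 reads in DKO condition 1 against 21.3 and 23.5 in WT. The read ratio therefore came with called length far more than with density.

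The widest member, chr15:80454001-80487999, held 119 reads in DKO condition 1 against 698 and 759 in WT. WT condition 2 called the whole 33999 bp as 1 island, and WT condition 1 called 30798 bp in a pair of islands. DKO condition 1 called 4398 bp, in islands of 90 and 29 reads, and DKO condition 2 called nothing there, with its nearest island 4801 bp away. The centred ratio to WT condition 1 was 0.178 (exact 95% interval 0.145 to 0.216). Another member, chr15:80505401-80519799, followed 17401 bp further along with 81 reads in DKO condition 1 against 175 and 281 in WT.

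In condition 2 the lowest ratio belonged to chr11:114726601-114749999. It held 55 reads in DKO condition 2 against 462 and 457 in WT conditions 1 and 2, over 2799 bp against 19998 and 21599 bp. The centred ratio to WT condition 2 was 0.128 (exact 95% interval 0.0947 to 0.169). DKO condition 1 had no island in the region and its nearest one was 5401 bp away. The next were chr18:56590401-56607799, with 64 reads in DKO condition 2 against 246 and 380, and chr14:66842401-66854799, with 51 against 189 and 297. At chr10:7548001-7570999 there were 66 reads against 291 and 324.

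The WT libraries did not always match each other in such regions. At chr17:31237401-31259999 there were 58 reads in DKO condition 1 against 422 in WT condition 1 and 60 in WT condition 2, so that the DKO value was close to that of WT condition 2. At chr6:54663801-54674399 there were 44 reads in DKO condition 2 against 51 and 225 in WT conditions 1 and 2. In both regions the gap between the WT libraries was about as wide as the gap between genotypes. The chr9:44490201-44503199 region held 22 reads in DKO condition 1 against 253 and 141, and chr2:127975401-127986599 held 46 against 281 and 185. These 2 regions, chr7:19651601-19674799, chr17:31237401-31259999 and chr10:7548001-7570999 had no base shared by all 3 calling libraries, so the 3 islands were joined through 1 of the WT islands.

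**Figure D4:**
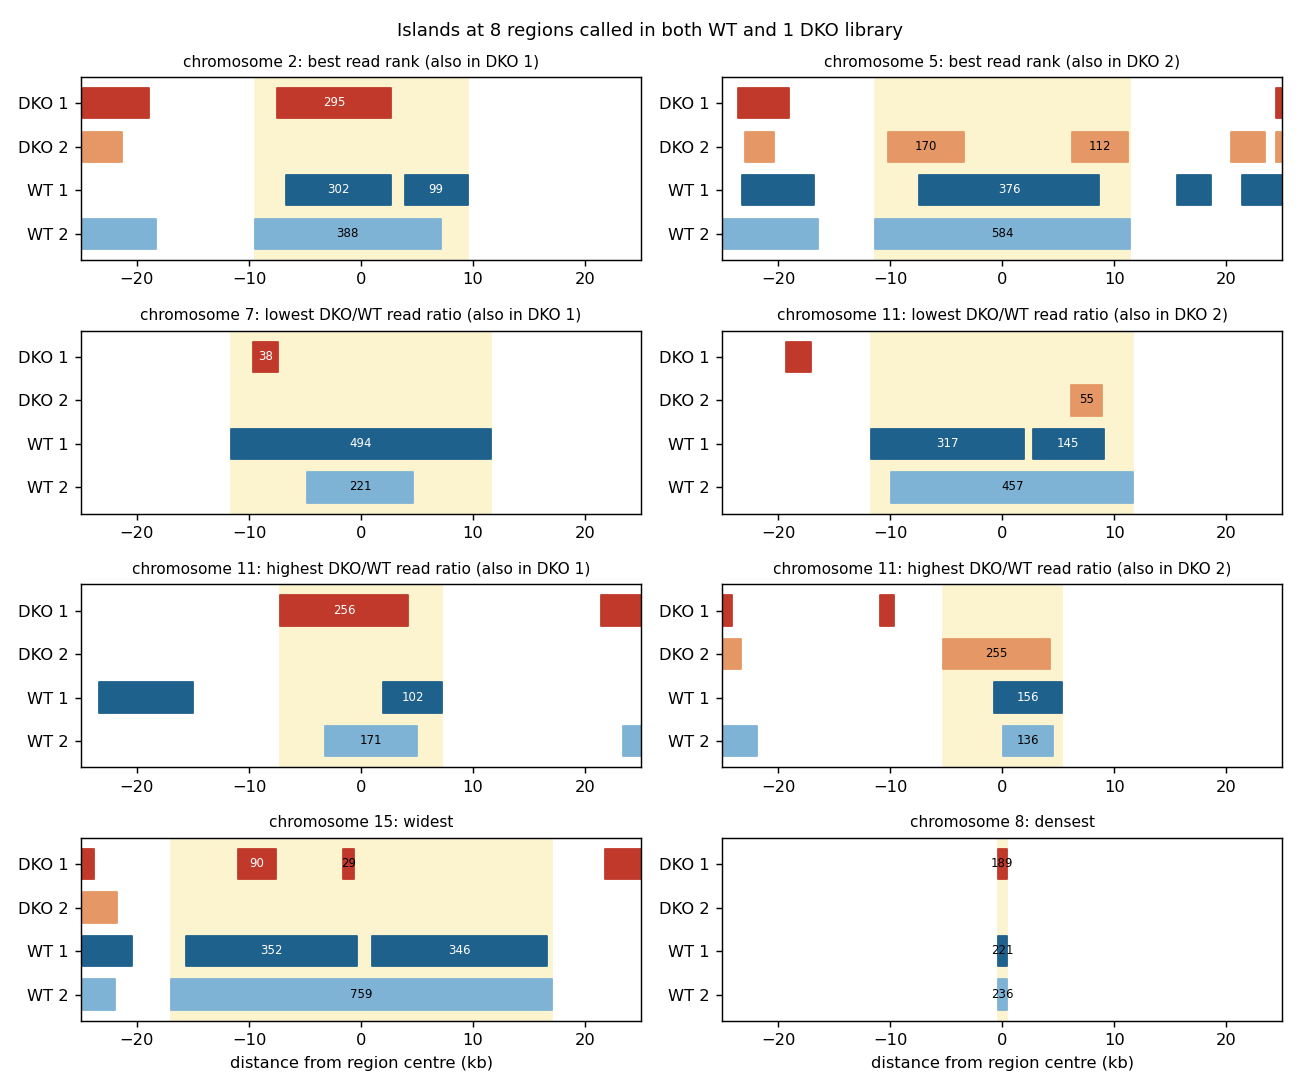
Islands of each library at 8 members, drawn by distance from the centre of the merged region (kb, shaded), with DKO libraries above WT libraries and the read number printed in each island of the region. The members shown have the best read rank, or the lowest or highest centred ratio of reads among members with at least 100 reads in the WT library, for each of the 2 DKO libraries, together with the widest (119 reads in DKO 1 against 698 and 759 in WT) and the densest (189 against 221 and 236).

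Members broad in WT were few, and their DKO calls were shorter than those of WT in the same condition in all but 1. The exception was chr2:30553401-30569799, with 11398 bp in DKO condition 1 against 10799 bp in WT condition 1. The called length was at least 10 kb in both WT libraries in 14 of the 597 members (2.35%). This held for 717 of the 5637 regions called in all 4 libraries, and the share over all regions was not computed. The limit was chosen after the data were seen. In the 6 broad members shared with DKO condition 1, the DKO called length was a median of 62.9% of that in WT condition 1. In the 8 shared with DKO condition 2, it was 40.5% of that in WT condition 2. Among the 717 regions called in all 4 libraries that were as broad in WT, these medians were 86.7% and 90.4%. The DKO called length was under 50% of the WT length in 2 of the 6, in 6 of the 8, and in 9.34% of the 717 regions in each condition. Besides those named above, the members under 50% were chr11:53606001-53627399, with 122 reads in DKO condition 1 against 400 and 425 in WT, and chr4:134136801-134151399, with 98 in DKO condition 2 against 221 and 245. The chr18:56655401-56673599 region, with 115 reads in DKO condition 2 against 225 and 340, lay near the other chromosome 18 region. These 3 were chosen after their values were seen.

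In other members the DKO library had more reads. Among members with at least 100 reads in the WT library of the condition, the highest ratio in condition 1 was at chr11:51743001-51757399. It held 256 reads in DKO condition 1 against 102 and 171 in WT, a centred ratio of 2.62 to WT condition 1 (exact 95% interval 2.07 to 3.33). At chr5:122759601-122777599 there were 244 reads against 101 and 364, so the 2 WT libraries lay on either side of the DKO library. At chr2:167355801-167365599 there were 233 against 110 and 160. The other regions in this ranking were chr2:165473001-165489799 (325 against 195 and 266) and chr8:75244801-75253999 (182 against 112 and 141). In all 5 the DKO called length was longer than in WT condition 1. In 4 of them, all but chr11:51743001-51757399, reads per kb were lower in DKO condition 1 than in WT condition 1.

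In condition 2, with the same limit of at least 100 WT reads, the highest ratio was 1.99 (exact 95% interval 1.61 to 2.47), at chr11:50043401-50053999, with 255 reads in DKO condition 2 against 156 and 136 in WT. The next were chr6:54752601-54763599, with 207 against 137 and 135 reads, and chr5:65348001-65355599, with 162 against 106 and 112. The chr17:56297201-56307799 region held 202 against 234 and 142, and chr11:94133401-94145799 held 208 against 210 and 151. In these last 2 the DKO library had no more reads than WT condition 1. In all 5, reads per kb were lower in DKO condition 2 than in WT condition 2.

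Members more often had an island of the lacking library within 2 kb and within 10 kb than all uncalled regions did. The nearest island of the DKO library that lacked the region was a median of 17401 bp away where DKO condition 2 lacked it and 20701 bp where DKO condition 1 lacked it, measured from deposited end to deposited start. Over all regions those libraries did not call, members included, these medians were 24201 and 21801 bp. For regions called in both WT libraries only they were 20401 and 16801 bp. By the median, members were thus farther than these regions from islands of DKO condition 1. An island lay within 2 kb of 32 of the 379 members (8.44%) that DKO condition 2 lacked, against 6.26% of all 11082 regions that library did not call. It lay within 2 kb of 27 of the 218 members (12.4%) that DKO condition 1 lacked, against 6.46% of 9182 regions. In all, 59 members (9.88%) had such an island within 2 kb and 209 (35.0%) within 10 kb. Within 10 kb the share was 34.0% of members against 28.3% of all uncalled regions for DKO condition 2, and 36.7% against 30.3% for DKO condition 1.

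**Figure D5:**
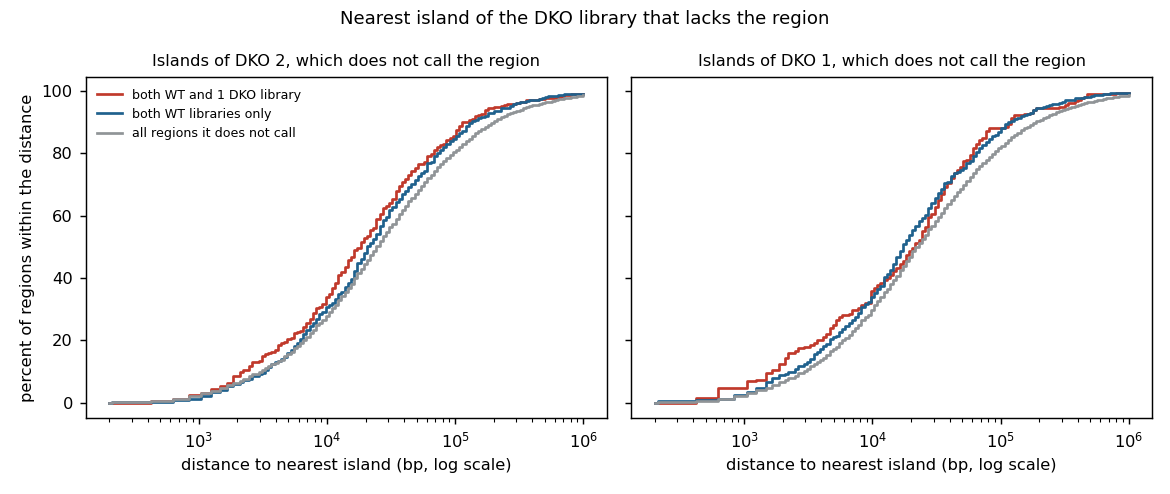
Percent of regions with an island of the DKO library that does not call them within a given distance (bp, log scale), for DKO condition 2 (left) and DKO condition 1 (right). The members' curves (red) reach 8.44% and 12.4% at 2 kb, against 6.26% and 6.46% for all regions the library does not call (grey), and pass 50% near 17401 and 20701 bp. The curves of regions called in both WT libraries only (blue) reach 5.99% and 8.76% at 2 kb and pass 50% near 20401 and 16801 bp.

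At the edge of the rule, no member had an island of the lacking library closer than 401 bp, and 5 members had one at that distance. Where DKO condition 2 was the lacking library they were chr2:163912201-163922199, with 71 reads in DKO condition 1 against 184 and 95 in WT, and chr7:97488801-97498799, with 100 against 92 and 190. The third in order was chr9:44203201-44212399, at 601 bp, with 128 against 227 and 106. Where DKO condition 1 was lacking they were chr2:71700201-71706999, with 126 reads in DKO condition 2 against 62 and 146, chr3:130759801-130766799, with 86 against 73 and 157, and chr6:121172001-121179399, with 108 against 154 and 133.

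Just outside the rule were regions called in all 4 libraries in which 1 DKO library barely met the rest. At chr4:24823001-24826599 the DKO condition 2 island shared 599 bp with the other libraries' islands, with 51 and 59 reads in DKO conditions 1 and 2 against 70 and 60 in WT. At chr12:8213401-8215599 it also shared 599 bp, with 48 and 49 reads against 56 and 73. At chr12:53198201-53200999 the DKO condition 1 island shared 399 bp, with 32 and 49 reads against 40 and 75, and at chr4:6116201-6119599 599 bp, with 51 and 95 against 51 and 79. The chr8:4777601-4780399 region, with 58 and 44 reads against 86 and 87, was near the edge for both DKO libraries. These regions had read numbers in the lower part of the members' range.

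The members were spread over all 20 chromosomes with islands. Numbers per chromosome ran from 12 on chromosome X to 49 on chromosomes 4 and 9. As a share of the regions called in both WT libraries they ran from 6.25% on chromosome 19 (Wilson 95% interval 3.88 to 9.91) to 12.1% on chromosome X (7.07 to 20). The interval left out the overall 8.63% on 1 chromosome, chromosome 9, with 11.6% (8.9 to 15), and 20 such intervals were set. On chromosome X 11 of the 12 members were shared with DKO condition 1. On chromosomes 1 and 14 more members were shared with DKO condition 2 than with DKO condition 1, 18 against 17 and 11 against 9.

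Neither the other members nor the regions called in all 4 libraries were usually close by. The nearest region called in all 4 libraries lay a median of 47801 bp from a member, with the middle 50% from 14201 to 142001 bp. The same distance was 46801 bp for regions called in WT alone and 48501 bp for the mirror regions, and 37201 bp between regions called in all 4 libraries. Such a region lay within 10 kb of 21.1% of members. The nearest other member was a median of 807201 bp away, and 30 members had another within 50 kb.

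Members within 20 kb of each other made 5 neighbouring pairs, 3 of which shared their call with the same DKO library. The closest pair lay 601 bp apart, at chr5:147631601-147639199, with 102 reads in DKO condition 2 against 79 and 70 in WT, and chr5:147639801-147641999, with 40 in DKO condition 1 against 46 and 35. Here each DKO library called 1 of the pair. On chromosome 11 the neighbours chr11:70598001-70609199, with 117 reads in DKO condition 2 against 178 and 223, and chr11:70613401-70623399, with 43 in DKO condition 1 against 160 and 172, were divided in the same way. On chromosome 2 both of a pair were shared with DKO condition 1, chr2:18855201-18867599 with 53 reads against 206 and 75 and chr2:18873801-18885399 with 125 against 215 and 246. On chromosome 16 the same held for chr16:32633801-32641999, with 91 reads against 137 and 89, and chr16:32648001-32662799, with 62 against 78 and 291. The remaining pair holds the widest member on chromosome 15, described above.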

How the data were processed

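mSin3A ChIP-seq was done on 4 libraries (DKO and WT, conditions 1 and 2). The submitters' processing notes name FastQC for read quality, Bowtie2 2.2.5 for alignment, SICER 1.1 for island calling and the build mm9. For SICER's settings, duplicates and the use of the inputs nothing is stated in the sources used here. The deposited lists give chromosome, start, end and a whole number with no header. That number was taken as the count of reads in the island, from the layout and the values; the deposited counts are not scaled for depth or width. Island starts were multiples of 200 bp. A start is printed with 1 added, an end as deposited, and a length is deposited end minus deposited start.

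Islands were merged when the next start lay at most 1 bp beyond the highest end. Reads and lengths were summed per region and library, and percentiles are among the regions a library called. Shares have Wilson and ratios exact (Clopper-Pearson) 95% intervals, and medians order-statistic intervals. The exact intervals cover counting error only, and reads from PCR-amplified libraries are not independent molecules. The Wilson and median intervals treat regions of the same libraries as independent draws. No interval covers the variation between libraries or animals. Total sequencing depth is unknown. Named regions are, for each DKO library, the 10 with the best lowest percentile, the 5 lowest and 5 highest ratios with at least 100 WT reads, and 3 on each side of the rule's edge. Members and lists were chosen with earlier results of these data known. The annotation and promoter sequences at hand are on GRCm38, another build, so the planned gene lists, marker lists and sequence measures were not used. The merging was tested on artificial islands. Python 3.11.15, numpy 2.4.6, pandas 2.3.3, scipy 1.17.1 and matplotlib 3.10.9 were used.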

Additional observations from a re-analysis of the deposited data

How the results depend on the processing

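With lists of equal length, 624 regions met the rule, 304 with DKO condition 1 and 320 with DKO condition 2, and the ratio to the mirror group was 0.393; 394 of the 597 members overlapped one of these. With the upper 50% of each list by reads, 424 regions met it, 128 of them with DKO condition 2, and the ratio was 0.369; only 110 of the members overlapped one of these. Requiring an island to cover 50% of the widest WT island gave 1059 regions, 539 with DKO condition 2, and a ratio of 0.558. Joining within 2 kb gave 550 regions, islands of at least 1 kb 604, autosomes only 585, and the added demand that the 3 calling lists share a base 540. The median log2 read ratio stayed below 0 under every alternative run. It was -0.092 and -0.025 in conditions 1 and 2 with lists of equal length, -0.11 and -0.10 with 50% cover, -0.28 and -0.43 scaled by total island reads, -0.25 and -0.33 unscaled, and -0.026 and -0.0055 per kb. A median below 0 is not particular to the members. Over all regions called in both libraries of the condition, the centred medians were -0.03 and -0.02, and those per kb 0 and -0.0087. An island of the lacking library lay within 1, 5 and 10 kb of 19, 131 and 209 members, against 59 within 2 kb. With bins by called length, the members' share was 13.3% in the lowest and 3.9% in the highest bin. The cause of these shifts was not tested.

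Of the 46 distinct members named by rule, none changed its ratio by more than its counting interval when reads were scaled otherwise. Per kb, however, only 13 stayed within it. Another 24 moved beyond it, and several of these changed sign from a ratio under 2-fold. The other 9, all past 2-fold, changed sign. The per-kb log2 ratios were -0.28 at chr2:167355801-167365599, -0.31 at chr5:122759601-122777599, 0.26 at chr6:54663801-54674399, 0.80 at chr9:44490201-44503199, 0.29 at chr10:7548001-7570999, 0.29 at chr14:66842401-66854799, 0.26 at chr15:80454001-80487999, 0.12 at chr17:31237401-31259999 and 0.066 at chr18:56590401-56607799. Joining within 2 kb ended membership for 13 of the 46, and the upper 50% of the lists for 19. No paired analysis was possible because each member has a value in only 1 of the 2 DKO libraries, so that no member has a DKO and WT pair in both conditions, and no test was made.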
